A study of Homo sapiens with 8 samples.

Results

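The genes described here encode the receptors that steer lymphocytes through blood, lymph node and bone marrow: the chemokine receptors CCR7, CXCR4 and CXCR5, the sphingosine 1-phosphate receptor S1PR1, the integrin subunits ITGA4, ITGB1 and ITGAL, and the hyaluronan receptor CD44. The 8 genes were chosen by symbol for their role in homing and adhesion, with no threshold on a value. The list was, however, drawn up with the fold changes between these treatments already known, so the values below describe the genes and are not independent evidence of a direction. Counts in all 8 libraries were at hand for 7 of the 8, among 16608 genes. CXCR5 was not analysed here.

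The RNA came from SupB15, an established Philadelphia chromosome-positive precursor B-cell acute lymphoblastic leukaemia line, grown in IMDM with 20% serum. Controls were kept in DMSO for 46 h. The single agents were 2 µM 1035, over the same 46 h, and 0.1 µM doxorubicin, over 10 h. The combination began with 36 h in 2 µM 1035, and 0.1 µM doxorubicin was then given over the final 10 h. The series title names 1035 as an HDAC inhibitor; this class of agents keeps acetyl marks on histones and other proteins. Doxorubicin is an anthracycline that poisons topoisomerase II. Each treatment has 2 libraries, called independent samples by the submitters, and all come from 1 cell line. Whether 1035 stayed on the cells during the last 10 h is not given. Treatment length and agent cannot be told apart where doxorubicin alone was compared with DMSO. In the combination against doxorubicin, 1035 cannot be told apart from the longer stated treatment, which began 36 h before doxorubicin. In the combination against 1035, and in the interaction, doxorubicin cannot be told apart from the different stated length of 1035.

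A circulating lymphocyte rolls on endothelium through selectins, is activated by chemokines that signal through G protein-coupled receptors, and arrests through integrins. CXCR4 binds CXCL12 and holds precursor B cells in the marrow, CCR7 follows CCL19 and CCL21 into lymph nodes, and S1PR1 reads the sphingosine 1-phosphate gradient that draws cells back out. The α4 subunit binds VCAM-1 when paired with β1 and MAdCAM-1 when paired with β7, and αL paired with β2 binds ICAMs.

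Library totals ranged from 11760542 to 18144670 counts. Levels are given as CPM, the counts scaled to a common library size with edgeR's TMM factors, or, to compare genes, per kilobase as well (FPKM). Differences are log2 fold changes from edgeR's quasi-likelihood test. Its p-values were adjusted over 16320 genes by Benjamini-Hochberg, and a gene was called at an adjusted p below 0.05. Standard errors were derived as the size of the log2 fold change divided by the square root of the test's F statistic. The first principal component placed the 4 libraries with 1035 at 25.0 to 27.7 and the other 4 at -29.1 to -23.5. All 14 precursor B-cell markers listed had counts, with a summed level of 4674 to 5023 CPM without 1035 and 3546 to 3774 CPM with it. Of these 14, 3 were called higher in 1035 against DMSO, 8 lower and 3 not. Over all genes tested 24.2% were called higher and 24.8% lower. IGLL1 averaged 851 CPM in DMSO and 244 in 1035 and DNTT 923 and 501.0, whereas CD22 averaged 149 and 259. These 3 were picked after their values were seen. Of 9 T and NK cell markers 1 had counts (NKG7, 9.64 to 11.8 CPM), and of 5 erythroid markers 0 did. Having counts means here that a gene was given in all 4 deposited comparisons. The smallest total over the 4 libraries of each comparison was 10, so a marker without counts need not have had 0 reads. The 5 of 8 myeloid markers with counts summed to 24.4 to 28.3 CPM without 1035 and 34.0 to 42.3 CPM with it. They went both ways: 3 were called higher and 1 lower in 1035 against DMSO. In the combination against doxorubicin 2 were called higher and 2 lower, where 21.8% and 22.0% of all genes were. ITGAM of that list is also counted among the integrins below. The 2 of 5 endothelial markers with counts summed to 1.19 to 2.59 CPM without 1035 and 5.37 to 9.02 CPM with it. CDH5 averaged 1.33 CPM in DMSO and 6.72 in 1035, and VWF 0.032 and 0.52. The 2 of 6 stromal markers with counts summed to 25.8 to 30.3 CPM without 1035 and 64.6 to 71.2 CPM with it. PDGFRB averaged 26.4 CPM in DMSO and 66.25 in 1035, and COL1A1 0.23 and 2.24. The part of these marker changes in the results below was not tested, and in bulk RNA fewer cells of a type and less RNA per cell cannot be told apart.

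With 1035, 5 of the 7 receptors were called higher than in DMSO and 2 lower, against 24.2% and 24.8% of all genes tested. CCR7 and S1PR1 rose most, CD44, ITGB1 and ITGAL rose by less, and ITGA4 and CXCR4 fell. The same split, 5 higher and 2 lower, was called in the combination against doxorubicin alone, where the backgrounds were 21.8% and 22.0%, and in the combination against DMSO, where they were 24.5% and 24.7%. The last of these shares its DMSO libraries with the first and its combination libraries with the other. The median size of the receptors' log2 fold change, with the sign removed, was 0.48 in 1035 against DMSO, where the median over all genes was 0.31. It was 0.49 against 0.28 in the combination against doxorubicin. Doxorubicin alone against DMSO called 0 of the 7, against 1.33% of all genes.

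**Figure D1:**
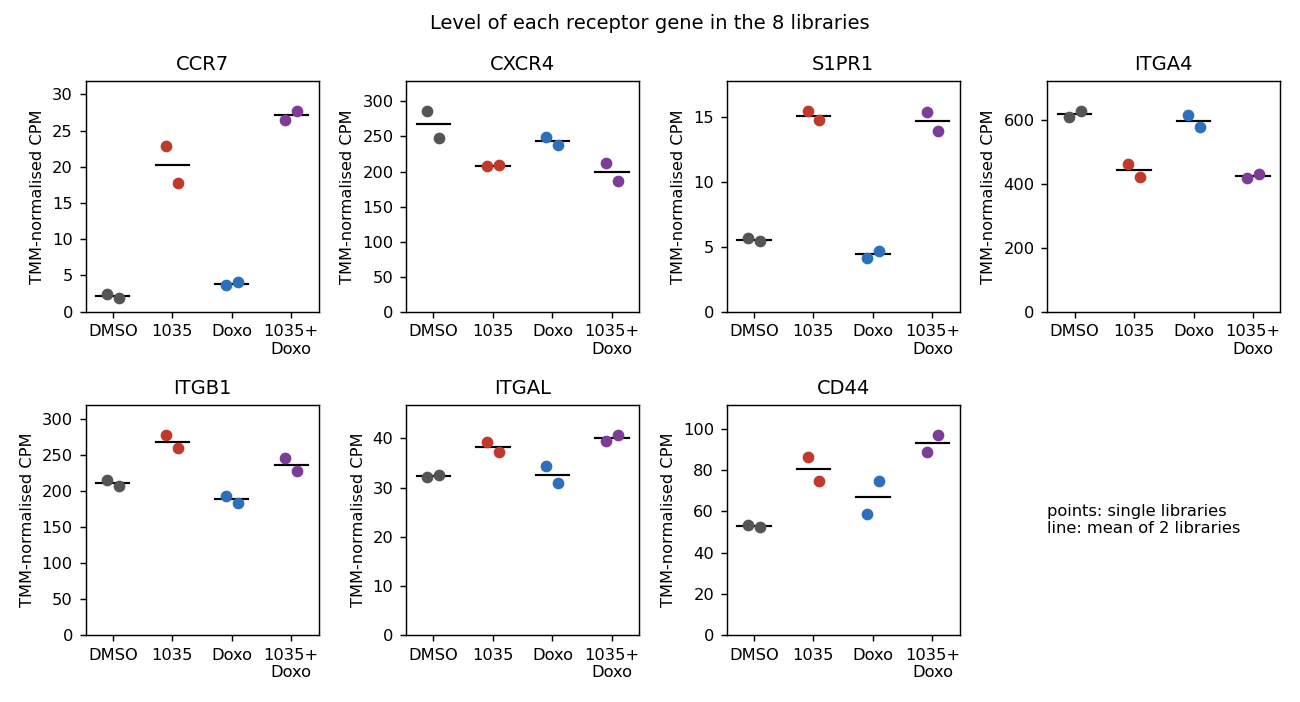
Level of each of the 7 receptors in each of the 8 libraries, in CPM on an axis from 0 in a panel per gene, by treatment; a point is 1 library and a line the mean of 2. CCR7 sits at 1.85 to 4.12 CPM in the 4 libraries without 1035 and at 17.8 to 27.7 CPM in the 4 with it, whereas CXCR4 and ITGA4 sit lower with 1035.

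CCR7, the receptor for the lymph node chemokines CCL19 and CCL21, showed the largest difference among the 7. Its counts were 38 and 28 with DMSO, 317 and 219 with 1035, 65 and 51 with doxorubicin alone, and 349 and 335 with both agents. In CPM these were 2.42 and 1.85, 22.8 and 17.8, 3.64 and 4.12, and 26.5 and 27.7. No library with 1035 overlapped a library without it, and the combination libraries lay above both 1035 libraries. The log2 fold change was 3.25 ± 0.17 in 1035 against DMSO, or 9.49-fold (adjusted p = 5.7e-19). It was 2.82 ± 0.14 in the combination against doxorubicin, or 7.04-fold (adjusted p = 5.4e-19). Against DMSO the combination gave 3.66 ± 0.16, or 12.6-fold.

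CXCR4, the CXCL12 receptor that retains precursor B cells in marrow, had the highest level per kilobase of the 7 in every treatment and went the other way. Its level was 286 and 248 CPM with DMSO, 207 and 210 with 1035, 250 and 237 with doxorubicin alone, and 212 and 186 with both agents. Both 1035 libraries lay below both DMSO libraries, and both combination libraries lay below both doxorubicin libraries. CXCR4 had a log2 fold change of -0.36 ± 0.07 in 1035 against DMSO (adjusted p = 2.6e-05) and -0.29 ± 0.07 in the combination against doxorubicin (adjusted p = 5.0e-04). Without library 2 of the combination the second value was -0.20 and was not called (adjusted p = 0.056). Relative to CXCR4 per kilobase, CCR7 was 0.751% and 0.661% in the DMSO libraries, 9.76% and 7.52% with 1035, 1.29% and 1.54% with doxorubicin, and 11.1% and 13.2% with both. The same ratio for S1PR1 was 1.44% and 1.58% in DMSO and 5.41% and 5.11% in 1035.

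S1PR1, the receptor that lets lymphocytes leave tissue toward sphingosine 1-phosphate, was low in DMSO, at 89 and 82 counts, and higher with 1035, at 215 and 182. In doxorubicin it had 74 and 58 counts and in the combination 203 and 169. In CPM, DMSO gave 5.67 and 5.42, 1035 gave 15.5 and 14.8, doxorubicin 4.14 and 4.69, and the combination 15.4 and 14.0. All 4 libraries with 1035 lay above all 4 without it, and both doxorubicin libraries lay below both DMSO libraries. The log2 fold change was 1.45 ± 0.14 in 1035 against DMSO, or 2.73-fold (adjusted p = 1.8e-11). It was 1.75 ± 0.15, or 3.36-fold, in the combination against doxorubicin (adjusted p = 7.2e-13).

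The exon-free stretch ahead of S1PR1, which rose with 1035, and that ahead of ITGA4, which fell, are shown side by side. A window of 250 bases before the RefSeq start on GRCh38.p14 was at hand for 4 of the 8 genes: CXCR5, S1PR1, ITGA4 and CD44. Each was shortened to the bases ahead of every exon in GENCODE 29, which left 96 bases for S1PR1 and 66 for ITGA4, and none for CD44. For S1PR1 and ITGA4 these are the window ends farthest from the start, and the bases nearer to it were not searched. Both lie on the plus strand, S1PR1 at chr1:101236769-101236864 and ITGA4 at chr2:181457136-181457201, and hold no exon of that annotation. Introns of other genes were not checked. Capitals mark a match to any of 5 motifs searched on both strands: the GC box GGGCGG, the Krüppel-type box CACCC, the TATA box TATAAA, the CCAAT box, and, by name, the NF-kB consensus.
S1PR1: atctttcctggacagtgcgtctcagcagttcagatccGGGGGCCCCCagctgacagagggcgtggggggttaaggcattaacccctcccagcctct
ITGA4: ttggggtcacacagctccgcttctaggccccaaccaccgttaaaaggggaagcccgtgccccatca
The S1PR1 stretch holds 1 match, a palindromic NF-kB consensus that reads the same on both strands. In the first 96 bases of all 35116 windows that motif occurs in 3.7%. The ITGA4 stretch holds 0 matches to the 5 motifs. In the first 66 bases of all windows these occur, in the order named, in 11.7%, 18.7%, 3.1%, 8.3% and 2.4%. The stretches differ in length, and their matches were not compared. GC content was 61.5% for S1PR1 and 60.6% for ITGA4, where the medians over all windows of the same lengths were 55.2% and 54.5%. A match is a description of letters only, and no binding was measured.

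ITGA4, the α4 subunit, fell with 1035. It measured 608 and 626 CPM with DMSO, 461 and 422 with 1035, 613 and 576 with doxorubicin alone, and 419 and 429 with both agents. The 4 libraries with 1035 lay below the other 4, with no overlap. Its log2 fold change was -0.48 ± 0.06 in 1035 against DMSO (adjusted p = 4.4e-09) and -0.49 ± 0.06 in the combination against doxorubicin (adjusted p = 4.5e-09).

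ITGB1, the β1 subunit that pairs with α4 and many other α chains, rose. It measured 216 and 207 CPM with DMSO, 278 and 259 with 1035, 194 and 184 with doxorubicin alone, and 246 and 228 with both agents. All 4 libraries with 1035 lay above all 4 without it. On the log2 scale ITGB1 was higher by 0.35 ± 0.06 in 1035 against DMSO (adjusted p = 5.7e-06) and 0.33 ± 0.06 in the combination against doxorubicin (adjusted p = 2.2e-05). It was 0.16 ± 0.06 (adjusted p = 0.0219) in the combination against DMSO, and was not called without library 2 of DMSO (adjusted p = 0.200) or library 1 of the combination (adjusted p = 0.247). Per kilobase, ITGA4 stood at 2.19 and 2.35 times ITGB1 in DMSO and 2.46 and 2.43 times in doxorubicin, and at 1.29 and 1.26 times in 1035 and 1.32 and 1.46 times in the combination. The α4 to β1 transcript ratio was therefore lower in every library with 1035 than in any without it.

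ITGB7, the alternative partner of α4 that gives the gut-homing integrin, rose as ITGA4 fell. Its FPKM was 12.8 and 13.1 with DMSO, 41.4 and 39.5 with 1035, 11.8 and 9.27 with doxorubicin alone, and 38.7 and 39.7 with both agents. The log2 fold change of ITGB7 was 1.65 ± 0.07 in 1035 against DMSO (adjusted p = 1.1e-18) and 1.88 ± 0.07 in the combination against doxorubicin (adjusted p = 9.3e-20). The ratio of ITGB7 to ITGA4 was 0.166 and 0.165 with DMSO, 0.711 and 0.741 with 1035, 0.152 and 0.127 with doxorubicin alone, and 0.730 and 0.731 with both agents. ITGB7 thus stood at 0.310 to 0.389 of the ITGB1 level without 1035 and at 0.915 to 1.07 with it. These are ratios of transcripts, and no surface dimer was measured.

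ITGAL, the αL subunit of the leukocyte integrin that binds ICAMs, had the smallest log2 fold change of the 7, by size, in 1035 against DMSO. It measured 32.3 and 32.6 CPM with DMSO, 39.2 and 37.2 with 1035, 34.4 and 30.9 with doxorubicin alone, and 39.5 and 40.7 with both agents. The lowest library with 1035 lay above the highest without it. The submitters' deposited DESeq2 results did not reach 0.05 for ITGAL. Their adjusted p was 0.0727 in 1035 against DMSO and 0.0961 in the combination against doxorubicin. The edgeR values follow. The log2 fold change of ITGAL was 0.24 ± 0.09 in 1035 against DMSO (adjusted p = 0.0198). That call was lost without either DMSO library (adjusted p = 0.0938 without library 1 and 0.0773 without library 2) or library 1 of 1035 (0.134), and in DESeq2 (0.0953). Against doxorubicin the combination gave 0.29 ± 0.09 (adjusted p = 0.00522), and 0.23 without library 2 of doxorubicin (adjusted p = 0.0526).

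ITGB2, the β2 partner of αL, rose by more than ITGAL. Its FPKM was 5.30 and 5.22 with DMSO, 12.4 and 13.0 with 1035, 5.15 and 4.58 with doxorubicin alone, and 12.4 and 12.1 with both agents. The log2 fold change of ITGB2 was 1.27 ± 0.08 in 1035 against DMSO (adjusted p = 2.9e-17) and 1.33 ± 0.08 in the combination against doxorubicin (adjusted p = 1.4e-17). The ratio of ITGB2 to ITGAL ran from 0.960 to 1.07 in the 4 libraries without 1035 and from 1.93 to 2.26 in the 4 with it.

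**Figure D2:**
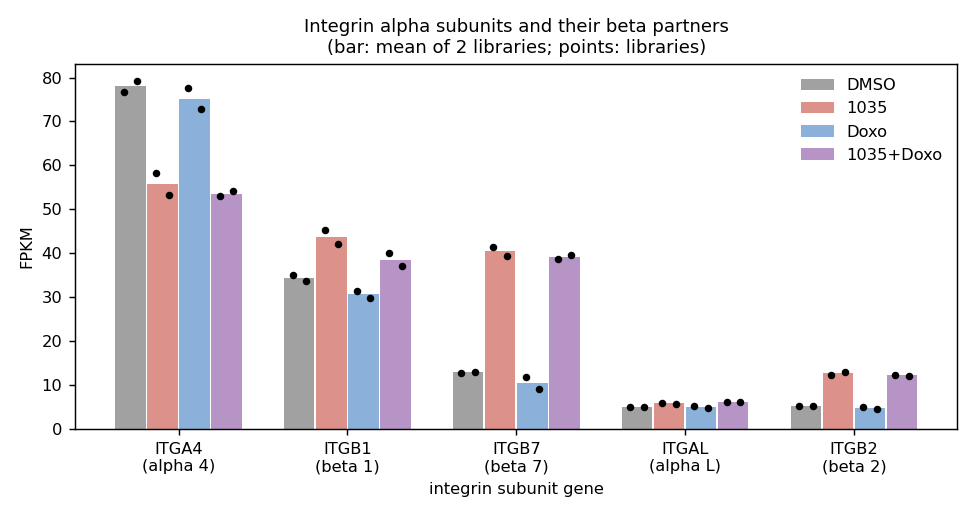
Transcript level of the α and β subunits in FPKM, by treatment; a bar is the mean of 2 libraries and a point 1 library. ITGB7 and ITGB2 are higher in every library with 1035 than in any without it, while ITGA4 is lower.

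CD44, a glycoprotein that binds hyaluronan in marrow and lymph node stroma, rose with 1035. It measured 53.6 and 52.4 CPM with DMSO, 86.3 and 74.9 with 1035, 58.7 and 74.9 with doxorubicin alone, and 88.8 and 97.0 with both agents. The doxorubicin libraries differed from each other, and library 2 of doxorubicin (74.89 CPM) overlapped library 2 of 1035 (74.85 CPM). Its log2 fold change was 0.61 ± 0.10 in 1035 against DMSO, or 1.52-fold (adjusted p = 1.2e-04), and 0.49 ± 0.10 in the combination against doxorubicin (adjusted p = 8.2e-04). Against DMSO the combination gave 0.81 ± 0.10, or 1.75-fold (adjusted p = 5.6e-06). Counts were summed per gene, so CD44 splice forms were not told apart.

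**Figure D3:**
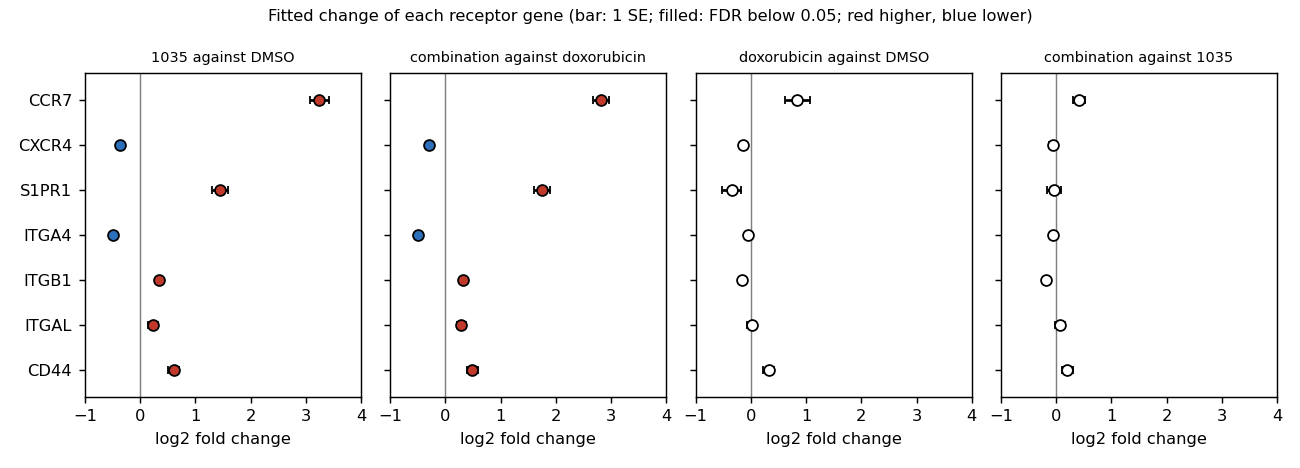
Log2 fold change of the 7 receptors in 4 comparisons, 1 per panel; bars are 1 standard error, red and blue points were called higher and lower, and open points were not called. The comparisons of 1035 with DMSO and of the combination with doxorubicin show 5 red points and 2 blue, from -0.49 for ITGA4 to 3.25 for CCR7, and the panels for added doxorubicin show 7 open points each.

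Per kilobase, the order of the receptors changed among the lower 4. CXCR4 was highest in all 4 treatments, at 120 ± 12 FPKM in DMSO and 93.7 ± 0.8 in 1035 (mean ± SD, n = 2), and ITGA4 and ITGB1 followed. In DMSO came CD44 at 5.26, ITGAL at 5.004, S1PR1 at 1.80 and CCR7 at 0.851. In 1035 CCR7 (8.09) and CD44 (7.998) were next and their libraries overlapped, and then came ITGAL (5.90) and S1PR1 (4.92). In doxorubicin CCR7 (1.55) and S1PR1 (1.44) were lowest and overlapped. In the combination CCR7, at 10.8 FPKM, stood above CD44 at 9.22, ITGAL at 6.19 and S1PR1 at 4.78, with no overlap between neighbours. Among 15063 genes with a length, CCR7 moved from percentile 11.7 in DMSO to 55.1 in 1035, and from 18.7 in doxorubicin to 63.7 in the combination. CXCR4 stayed between percentiles 97.44 and 98.02.

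**Figure D4:**
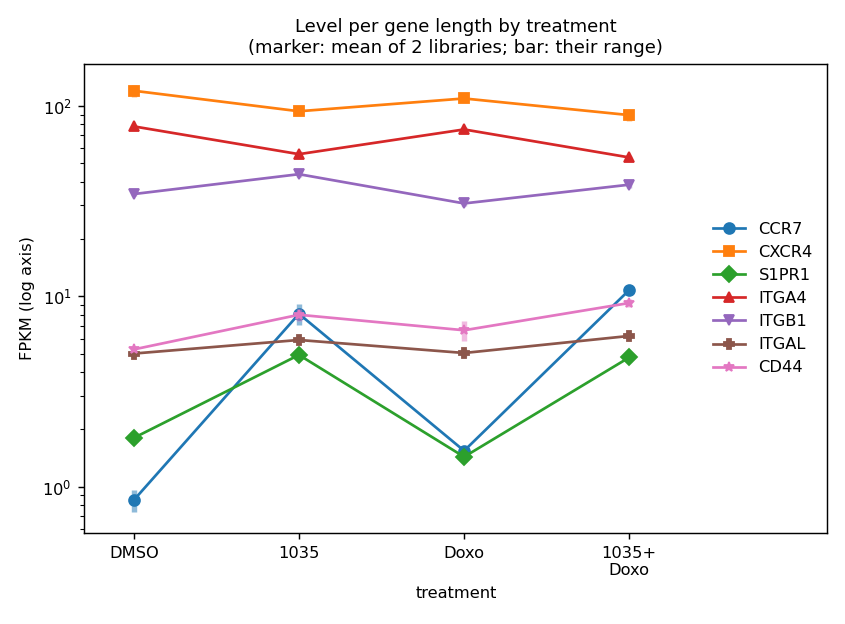
Mean FPKM of the 7 receptors in each treatment, on a log axis; a marker is the mean of 2 libraries, a bar their range, and lines join the markers of 1 gene across treatments. CCR7 is lowest in DMSO (0.851) and stands next below ITGB1 in 1035 (8.09) and the combination (10.8).

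Doxorubicin alone, against DMSO, called 0 of the 7 receptors in edgeR, with 4 of 7 at an unadjusted p below 0.05. DESeq2 called 0 of the 4 to which it gave an adjusted p; it gave none to CCR7, S1PR1 and ITGAL. Over all genes, edgeR called 1.33%, 13.3% had an unadjusted p below 0.05, and DESeq2 called 3.05% of the 5016 with an adjusted p. CCR7 differed by 0.84 ± 0.23 on the log2 scale (adjusted p = 0.053), with both doxorubicin libraries above both DMSO libraries. Over the 15 refits that gave CCR7 an adjusted p its value ran from 0.66 to 1.05, and 5 of them called it. It was called when the low-count filter was raised to a mean of 50 (adjusted p = 0.0394), in the fit with a replicate block (0.0443), and without library 1 of 1035 (0.0322), library 2 of 1035 (0.0293) or library 1 of doxorubicin (0.0281). CD44 had 0.32 ± 0.10 (adjusted p = 0.159), and 0.50 without library 1 of doxorubicin (adjusted p = 2.5e-05). ITGB1 had -0.16 ± 0.06 (adjusted p = 0.197), and was called without the same library (adjusted p = 0.0465). S1PR1 had -0.34 ± 0.17 (adjusted p = 0.381) and CXCR4 -0.13 ± 0.07 (adjusted p = 0.368). ITGA4 had -0.05 ± 0.06 and ITGAL 0.02 ± 0.09.

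Adding doxorubicin to 1035 called 0 of the 7 against 1035 alone, with 2 of 7 at an unadjusted p below 0.05 and 0 called in DESeq2. Over all genes the shares were 0.496%, 6.80% and, in DESeq2, 0.539%. CCR7 differed by 0.41 ± 0.11 on the log2 scale (adjusted p = 0.0935). Over 16 refits its value ran from 0.25 to 0.61, and 4 of them called it. It was called when only the 4 libraries of the comparison entered the fit (adjusted p = 0.00846), and without library 1 of 1035 (0.0112), library 1 of doxorubicin (0.0275) or library 2 of doxorubicin (0.0263). ITGB1 had -0.18 ± 0.06 (adjusted p = 0.302) and CD44 0.20 ± 0.10 (adjusted p = 0.754). ITGB1 was called, at -0.23, when library 2 of 1035 and library 2 of doxorubicin were left out together (adjusted p = 0.00577). The other 4 lay between -0.07 and 0.07. The stated 1035 exposure also differed in this comparison, at 36 h in the combination and 46 h alone.

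Whether the response to 1035 differed with doxorubicin present was tested by the interaction of the agents. The stated 1035 exposure was 46 h alone and 36 h in the combination, so the interaction also holds that difference. The test called 0 of the 7 receptors, with 0 at an unadjusted p below 0.05 and 0 in DESeq2. Over all genes the shares were 0.0184%, 4.82% and, in DESeq2, 0.0120%. The largest interaction was that of CCR7, -0.43 ± 0.26 on the log2 scale (adjusted p = 0.952). S1PR1 had 0.30 ± 0.21 (adjusted p = 0.952), and the other 5 lay between -0.12 and 0.07. None passed, which does not show that the responses were alike: the standard errors ran from 0.08 for ITGA4 and ITGB1 to 0.26 for CCR7.

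The genes around the receptors were read from 9 lists drawn up by function, with earlier results known. Counts called are to be read against all genes, of which 24.2% were called higher and 24.8% lower in 1035 against DMSO, and 21.8% and 22.0% in the combination against doxorubicin. Among the other chemokine receptors, 5 of 21 were tested and 3 rose with 1035, where the list's median log2 fold change was 1.70 and that of all genes 0.01. CXCR3, the receptor for interferon-induced chemokines, had 4.65 and 5.09 CPM in DMSO and 13.4 and 18.5 in 1035 (log2 fold change 1.70 ± 0.15). ACKR3, the scavenger receptor for CXCL12, had a log2 fold change of 2.65 ± 0.63 and CCR10, a receptor for CCL28, 2.24 ± 0.61. Both had under 2 CPM in every library, and CCR10 was not called without library 1 of DMSO (1.43, adjusted p = 0.0788). Of the 5, 2 rose in the combination against doxorubicin, CXCR3 (1.86) and CCR10 (2.25), and CCR10 was not called without library 1 of doxorubicin (1.67, adjusted p = 0.0605). Of 21 chemokine ligands 2 were tested: CCL5 rose (1.69 ± 0.38) and CCL28 fell (-0.79 ± 0.23), and they did the same in the combination against doxorubicin (1.79 and -1.18). The CCL28 call in 1035 against DMSO was lost in DESeq2 (adjusted p = 0.0572) and without library 1 of 1035 (-0.57, adjusted p = 0.0914). CXCL12, CXCL13, CCL19 and CCL21 were not analysed here.

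In the sphingosine 1-phosphate system beside S1PR1, 5 of 13 genes rose, 5 fell and 3 were not called in 1035 against DMSO, where 24.2% of all genes rose and 24.8% fell. The median was 0.04. CD69, which binds S1PR1 and takes it off the cell surface, rose from 7.78 and 8.995 CPM in DMSO to 23.2 and 22.3 in 1035 (log2 fold change 1.44 ± 0.12). In the combination CD69 reached 45.8 and 41.0 CPM, against 12.5 and 10.9 in doxorubicin (1.88 ± 0.10), and it was also higher than in 1035 alone (0.93 ± 0.10, adjusted p = 1.0e-08). S1PR3 rose (1.65 ± 0.19) and S1PR4, a receptor of haematopoietic cells, fell (-0.64 ± 0.07). In the combination against doxorubicin 5 rose and 3 fell, among them S1PR3 (1.89) and S1PR4 (-0.45).

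Of the other integrin subunits, 16 of 23 symbols had counts, in 17 rows because ITGB3 stood under 2 identifiers. In 1035 against DMSO 9 rows rose, 1 fell and 7 were not called (median 0.47), where 24.2% of all genes rose and 24.8% fell, and the counts in the combination against doxorubicin were the same 9, 1 and 7 (median 0.57). Beside ITGB7 and ITGB2, ITGB5, a partner of αV, rose from 1.85 and 1.46 CPM to 11.2 and 12.4 (2.83 ± 0.20; 2.33 ± 0.19 in the combination against doxorubicin). Of 28 tested genes that activate integrins or link them to actin, 16 rose and 5 fell with 1035 (median 0.23), and 14 rose and 4 fell in the combination against doxorubicin (median 0.23). VCL, vinculin, rose (1.27 ± 0.06 and 1.19 ± 0.06), and so did PTK2, focal adhesion kinase (0.99 ± 0.06 in both). FERMT3, the kindlin of blood cells that activates integrins, fell from 197 and 207 CPM in DMSO to 114 and 120 in 1035 (-0.79 ± 0.06; -0.65 ± 0.06 in the combination against doxorubicin).

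Of 26 tested selectins, immunoglobulin-family adhesion molecules and their modifying enzymes and tetraspanins, 13 rose and 5 fell in 1035 against DMSO (median 0.47; 24.2% and 24.8% of all genes), and 11 rose and 2 fell in the combination against doxorubicin (median 0.19). The tetraspanin CD82 rose from 8.73 and 6.81 CPM to 47.6 and 51.1 (2.66 ± 0.11), and F11R, a junctional adhesion molecule, rose as well (0.89 ± 0.07). FUT4, a fucosyltransferase that makes selectin ligands, fell (-1.003 ± 0.101). In the combination against doxorubicin their log2 fold changes were 3.01 for CD82, 0.72 for F11R and -1.03 for FUT4.

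Among 11 tested hyaluronan genes and CD44 partners, 3 rose and 4 fell with 1035 (median -0.04), and 2 rose and 4 fell in the combination against doxorubicin (median -0.06). The shares that rose were near those over all genes, 24.2% and 21.8%. MSN, moesin, which ties CD44 to actin, rose (0.39 ± 0.06). NF2, merlin, a related protein that also binds CD44, fell (-0.44 ± 0.07), as did MMP14, a membrane protease that cleaves CD44 (-0.56 ± 0.07). The values were 0.31 for MSN, -0.50 for NF2 and -0.60 for MMP14 in the combination against doxorubicin.

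Of 35 tested genes of chemokine receptor signalling, 14 rose and 12 fell with 1035 (median 0.01), and 16 rose and 11 fell in the combination against doxorubicin (median 0.19). Over all genes 24.2% rose and 24.8% fell in the first of these comparisons, and 21.8% and 22.0% in the other. PREX1, a Rac exchange factor driven by G protein βγ subunits, rose (0.93 ± 0.06 and 0.84 ± 0.06 in the 2 comparisons). RGS19, which shortens Gα signalling, fell (-1.17 ± 0.09 and -1.02 ± 0.09), and so did ADRBK1, the kinase also called GRK2 that desensitises chemokine receptors (-0.79 ± 0.06 and -0.73 ± 0.06). DOCK8, a Cdc42 exchange factor needed for lymphocyte migration, fell by 0.72 on the log2 scale in the combination against doxorubicin, and GNG2, a Gγ subunit, rose by 1.11. All 12 transcription factors listed for homing genes were tested: 8 rose and 1 fell with 1035 (median 0.27), and 7 rose and 1 fell in the combination against doxorubicin (median 0.22). KLF2, which activates the S1PR1 gene in lymphocytes, had 14 and 14 counts in DMSO, 43 and 51 in 1035, 10 and 11 in doxorubicin, and 40 and 37 in the combination (1.97 ± 0.31 with 1035 alone). FOXO1, upstream of KLF2 and CCR7 in lymphocytes, had a log2 fold change of 0.25 ± 0.07 with 1035. It had 0.19 ± 0.07 in the combination against doxorubicin, where the call was lost in DESeq2 (adjusted p = 0.0775) and without library 1 of doxorubicin (0.342) or library 1 of the combination (0.220). POU2AF1, a B-cell coactivator, rose by 0.54 and NFKB2 by 0.69 with 1035.

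Doxorubicin against DMSO called 7 of 149 genes tested over the 9 lists, where 1.33% of all genes were called. DESeq2 gave an adjusted p to 2 of the 7, CD9 and FUT7, and called both. NFKB2 (0.85 ± 0.11) and RELB (0.77 ± 0.12), which together form the non-canonical NF-kB dimer, rose, as did RGS16, a regulator of G protein signalling (0.89 ± 0.12). The combination against 1035 called 5 of the 149, 4 higher and 1 lower, where 0.496% of all genes were called. NFKB2, RELB and RGS16 were also higher in the combination than in 1035 alone, by 0.97 ± 0.10, 1.01 ± 0.13 and 1.46 ± 0.13. In doxorubicin against DMSO, CD69 (0.50) and PXN, paxillin (0.55), were called higher and CD9 (-0.22) and FUT7 (-0.29) lower. Each of these calls was lost in several refits. Without library 1 of DMSO their adjusted p was 0.557, 0.205, 0.517 and 0.197, and without library 2 of DMSO 0.0927, 0.280, 0.205 and 0.296. Leaving out library 2 of doxorubicin also lost PXN (0.438), CD9 (0.144) and FUT7 (0.225), and leaving out library 1 of doxorubicin lost CD69 (0.161). Leaving out either combination library lost CD69 (0.0701 without library 1 and 0.0719 without library 2), PXN (0.0654 and 0.0694) and CD9 (0.0668 and 0.0671).

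**Figure D5:**
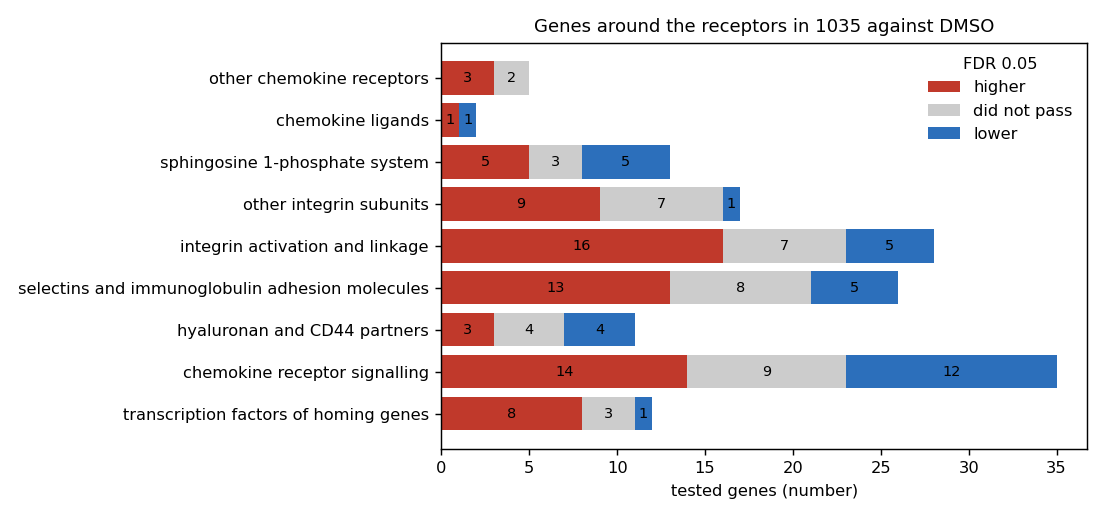
Genes called higher, lower and not called in each of the 9 functional lists in 1035 against DMSO; the length of a bar segment is the number of tested genes. The integrin linkage list has 16 higher and 5 lower, and the list of chemokine receptor signalling genes 14 higher and 12 lower.

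CCR7 and S1PR1 were the receptors whose treatment means differed by at least 1 on the log2 scale, by 3.59 and 1.75. Their nearest genes among 12072 compared were found by the root mean square difference of centred log2 CPM over the 8 libraries. For CCR7 these were RP11-325F22.2 (0.24), TCF7 (0.25) and DNM1 (0.27). TCF7, a transcription factor of early lymphocytes, averaged 1.17 CPM with DMSO, 12.9 with 1035, 1.57 with doxorubicin alone and 13.6 with both agents. For S1PR1 they were ATXN1 (0.08), FGD4 (0.09) and RP11-1070N10.6 (0.11), and ATXN1 averaged 5.13, 15.0, 4.58 and 14.3 CPM in the same order. These are the closest profiles in a study where 1035 separates the libraries, and the measure says only that.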

How the data were processed

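Ribosomal RNA was depleted, and libraries were made with a stranded kit and read as 50-base single reads, per the labels' protocols. The submitters' processing notes name hg19, Novoalign 2.08.01 and DESeq2 1.4.5; neither the counting tool nor its strand setting or gene models could be learnt from these. The authors deposited 4 tables of pairwise comparisons with raw counts, FPKM, log2 fold changes and p-values per gene. Their counts were joined on the gene identifier: of 17849 genes found, 16608 had a count for each of the 8 libraries, and the 1241 left out held at most 1.02% of a library. All 132880 counts held by more than 1 table were equal. edgeR 4.0.16 (robust quasi-likelihood, TMM, filterByExpr, which removed 288 genes and none of the receptors) was fitted to all 8 libraries with 4 residual degrees of freedom; the fit was tested on simulated data. FPKM here are TMM-scaled CPM divided by the length implied by the authors' deposited FPKM. Overlapping antisense genes of ITGB1, ITGAL and CD44 cannot be told apart from them if strand was not used. Named list genes are the up to 3 called genes of a list with the smallest adjusted p in 1035 against DMSO or in the combination against doxorubicin, every called gene where 3 or fewer were called, and a few set by name, of which 1 is not reported here; nearest genes are the 3 closest. The receptors and lists were chosen with earlier results of these data known. Alternatives were DESeq2 1.42.0, other filters, scalings and fits, a replicate block, and leaving out libraries. P-values measure only the spread between these libraries. The fit draws the spread of each gene toward a trend over all genes, with a median of 35.6 prior degrees of freedom.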

Additional observations from a re-analysis of the deposited data

How the results depend on the processing

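The fold changes of the 7 receptors were refitted under every alternative run. Of 662 such values, 625 kept their direction and their side of the threshold, 8 lost a call, 12 gained one, and 17, uncalled in the reported fit, changed sign; the cause was not tested. The calls lost and gained are given with the receptors above. No receptor called in 1035 against DMSO, the combination against doxorubicin or the combination against DMSO changed sign. Leaving out 1 library at a time moved the log2 fold change of ITGAL in doxorubicin against DMSO between -0.068 and 0.081. In the combination against 1035 it moved CXCR4 between -0.16 and 0.022, S1PR1 between -0.12 and 0.027, and ITGA4 between -0.119 and 0.0081. In the interaction it moved CXCR4 between -0.037 and 0.17, ITGA4 between -0.067 and 0.061, ITGB1 between -0.076 and 0.033, ITGAL between -0.012 and 0.14, and CD44 between -0.30 and 0.058. Leaving out library 2 of 1035 and library 2 of doxorubicin together gave ITGAL an interaction of -0.0504.

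In doxorubicin against DMSO, 0 receptors were called higher, and 1 was with a mean count of at least 50 or with the replicate block. Without 1 library, 0 to 2 were called higher and 0 to 1 lower. The 217 genes called in this comparison became 134 with only its own groups in the fit and 33 to 1180 without 1 library, the highest without library 1 of doxorubicin. Of the genes in the 9 lists, those called higher numbered 0 in DESeq2, which gave none of the 5 reported an adjusted p, 3 with only the groups compared, and 3 to 9 without 1 library. Those called lower numbered 1 in edgeR without its robust option, 1 with only the groups compared, 1 without the pair of libraries, and 0 to 12 without 1 library. In the combination against 1035, 1 receptor was called higher with only the groups compared and 0 to 1 without 1 library, and 1 lower without the pair of libraries. The 81 genes called became 151 with only the groups compared and 30 to 143 without 1 library. List genes called lower numbered 0 in DESeq2, 0 without the robust option and 0 to 1 without 1 library. In the combination against doxorubicin, 1 to 2 receptors were called lower without 1 library. The 3 genes of the interaction became 16 with the replicate block, 6 without the pair of libraries and 1 to 239 without 1 library, the highest without library 1 of doxorubicin. Of the list genes, 0 to 2 were then called higher and 0 to 1 lower.

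Libraries of the same replicate number did not deviate together: over 12067 genes the correlations of their deviations between treatments lay between -0.082 and 0.08. The check sees only a shift shared over many genes and cannot show how cultures or libraries were prepared. The replicate block is therefore given as 1 more alternative. The lowest counts among the receptors were those of CCR7 and S1PR1, 28 to 65 and 58 to 89 in the libraries without 1035.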
